A study of Mus musculus with 24 samples.

Results

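The aryl hydrocarbon receptor (AHR) and the genes that it is known to control were followed in mouse embryonic fibroblasts (MEFs), cells of embryonic connective tissue grown in culture, across 24 libraries of poly(A) RNA. The group holds 6 genes of the 55487 in the gene table, taken by symbol: Ahr, Arnt, Ahrr, Cyp1a1, Cyp1b1 and Tiparp. All 6 are among the 15828 genes that passed the filter on low counts. They were chosen by the low level of Cyp1b1 with MK-8722 in knockout cells, so that contrast, the difference between the genotypes in the response to MK-8722, and the other contrasts of Cyp1b1 that use those libraries are given as values without a test.

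Of the 2 genotypes, WT is wild-type and AMPK KO carries the label of a knockout of AMP-activated protein kinase, which the methods of the study describe as the loss of both catalytic subunits, Prkaa1 and Prkaa2. Each genotype received vehicle (DMSO), the AMPK activator MK-8722 or the MTOR inhibitor torin1, in 6 groups of 4 libraries. WT libraries carry passage labels 12 to 15 and AMPK KO libraries 16 to 19, with 1 library of each passage in every group, so passage and genotype cannot be told apart. The cells of both genotypes were provided to the authors by another laboratory. Libraries of a group differ in passage label, but nothing in the labels says whether these are successive passages of 1 culture. The p-values thus measure the spread between these libraries alone. All share 1 batch label.

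AHR is a transcription factor of the basic helix-loop-helix PAS family. It waits in the cytosol in a complex with the chaperone HSP90, and when a small aromatic ligand binds it enters the nucleus, pairs with ARNT and binds DNA at sites with the core GCGTG. The classic targets are the P450 enzymes Cyp1a1 and Cyp1b1, which oxidize the same kind of ligand, and the inhibitors Ahrr and Tiparp, which close a negative feedback loop. In fibroblasts, Cyp1b1 is the member of the P450 family 1 best known to be expressed.

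The target genes that the results turn on are shown by the stretch before their start, with GCGTG or its reverse complement CACGC in capitals, because AHR and ARNT are known to bind that core. The sequences are from RefSeq on GRCm38.p6, read 5′ to 3′ on the strand of the gene. They lie at chr17:79715062-79715311 on the minus strand for Cyp1b1, chr9:57697363-57697612 on the plus strand for Cyp1a1, chr13:74292332-74292581 on the minus strand for Ahrr and chr3:65528197-65528409 on the plus strand for Tiparp, which is cut short where an annotated exon begins. The stretch for Cyp1a1 lies inside the annotated span of that gene, before the start that RefSeq uses.
Cyp1b1: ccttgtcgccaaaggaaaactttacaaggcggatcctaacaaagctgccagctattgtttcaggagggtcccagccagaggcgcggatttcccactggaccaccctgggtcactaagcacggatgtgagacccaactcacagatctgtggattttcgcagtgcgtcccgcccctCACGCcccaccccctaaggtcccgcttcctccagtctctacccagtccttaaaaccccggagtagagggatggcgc
Cyp1a1: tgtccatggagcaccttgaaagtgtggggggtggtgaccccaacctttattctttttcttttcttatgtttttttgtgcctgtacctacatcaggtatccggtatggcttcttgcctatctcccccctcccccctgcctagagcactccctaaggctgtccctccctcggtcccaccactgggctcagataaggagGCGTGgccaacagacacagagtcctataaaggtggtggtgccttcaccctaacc
Ahrr: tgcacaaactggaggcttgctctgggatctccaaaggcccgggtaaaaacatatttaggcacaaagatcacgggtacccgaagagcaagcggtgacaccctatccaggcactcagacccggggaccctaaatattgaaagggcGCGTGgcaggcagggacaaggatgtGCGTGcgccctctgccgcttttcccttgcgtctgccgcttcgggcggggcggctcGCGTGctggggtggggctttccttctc
Tiparp: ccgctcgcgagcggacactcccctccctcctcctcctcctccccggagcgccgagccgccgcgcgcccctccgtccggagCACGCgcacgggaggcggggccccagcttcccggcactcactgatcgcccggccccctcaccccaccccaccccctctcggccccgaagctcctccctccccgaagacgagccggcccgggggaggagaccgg

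In the 250 bases before the start, GCGTG on either strand was found 3 times for Ahrr and 1 time each for Cyp1b1, Cyp1a1 and Tiparp, as well as 1 time for Arnt, and no matches overlapped. The match nearest to the start was at 27 to 23 bases before it in Ahrr, 54 to 50 in Cyp1a1, 76 to 72 in Cyp1b1 and 170 to 166 in Tiparp. All 5 genes with a window held the letters, against 28.2% of the 32851 windows of the same length in the table, and 8.63% of windows held 2 or more. A match is a run of letters and not a site at which binding was measured.

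In the annotation of GRCm38 all 6 are protein-coding genes. Ahr lies at chr12:35497974-35535038 on the minus strand, Arnt at chr3:95434388-95497240 on the plus strand, Ahrr at chr13:74211118-74292331 on the minus strand, Cyp1a1 at chr9:57687928-57703824 on the plus strand, Cyp1b1 at chr17:79701537-79715061 on the minus strand and Tiparp at chr3:65528410-65555518 on the plus strand. Ahr overlaps the long non-coding RNA Gm48236 and Tiparp the pseudogene 4931440P22Rik, both on the opposite strand, and Arnt overlaps the pseudogene Gm42672 on its own strand. Whether strand was used in counting is not given in the sources used here, so reads of these partners cannot be told apart from those of the gene.

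Library totals ranged from 26900240 to 34192685 estimated counts, and RNA integrity numbers from 9.7 to 10. Prkaa1 transcripts were found at 71.3 to 84.5 CPM (counts scaled to the library total, with TMM) in WT and at 65.6 to 82.5 CPM in AMPK KO, and Prkaa2 at 3.22 to 9.01 and 2.34 to 5.71 CPM, so levels of these transcripts do not check the genotype labels. Of 10 fibroblast markers, all were detected, and their summed level was 11200 to 17300 CPM in WT and 4890 to 6960 CPM in AMPK KO. Among them Thy1 and Pdgfra, defining markers of fibroblasts, averaged 0.809 and 1.63 CPM over all libraries. The summed level of 5 epithelial markers was 37.1 to 69.1 CPM in WT and 17.2 to 26.9 CPM in AMPK KO, of which Krt19 averaged 34.1 CPM. Markers of endothelial cells summed to at most 8.6 CPM, mostly Kdr, and those of hepatocytes to at most 0.331 CPM. Those of macrophages summed to at most 4.67 CPM, mostly Cd68, with Adgre1 at 0 in all libraries.

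Compared per length, in TPM (transcript counts divided by length and scaled to a common total), Arnt was the most abundant of the 6 in every group. In WT MEFs with DMSO, the level of Arnt, the partner with which AHR binds DNA, was 47.5 ± 2.48 TPM (SD, n = 4), that of Tiparp 6.59 ± 0.53 TPM, that of Cyp1b1 3.53 ± 1.56 TPM and that of the receptor gene Ahr 1.45 ± 0.237 TPM. Cyp1a1 was at 0.193 ± 0.0778 TPM and Ahrr at 0.0447 ± 0.0198 TPM. In AMPK KO MEFs with DMSO, Arnt was at 52.6 ± 2.9 TPM, Tiparp at 20.5 ± 1.16 TPM and Ahr at 6.74 ± 1.03 TPM. There Cyp1b1 was at 1.57 ± 0.553 TPM, below Ahr, and Ahrr at 1.25 ± 0.51 TPM. Ahrr and Cyp1a1 reached 10 estimated counts in 13 of 24 libraries each, and the other 4 genes reached them in all 24. For Ahrr these were the 12 AMPK KO libraries and 1 library of WT torin1, so Ahrr passed the filter on low counts through the genotype in which it was high.

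**Figure D1:**
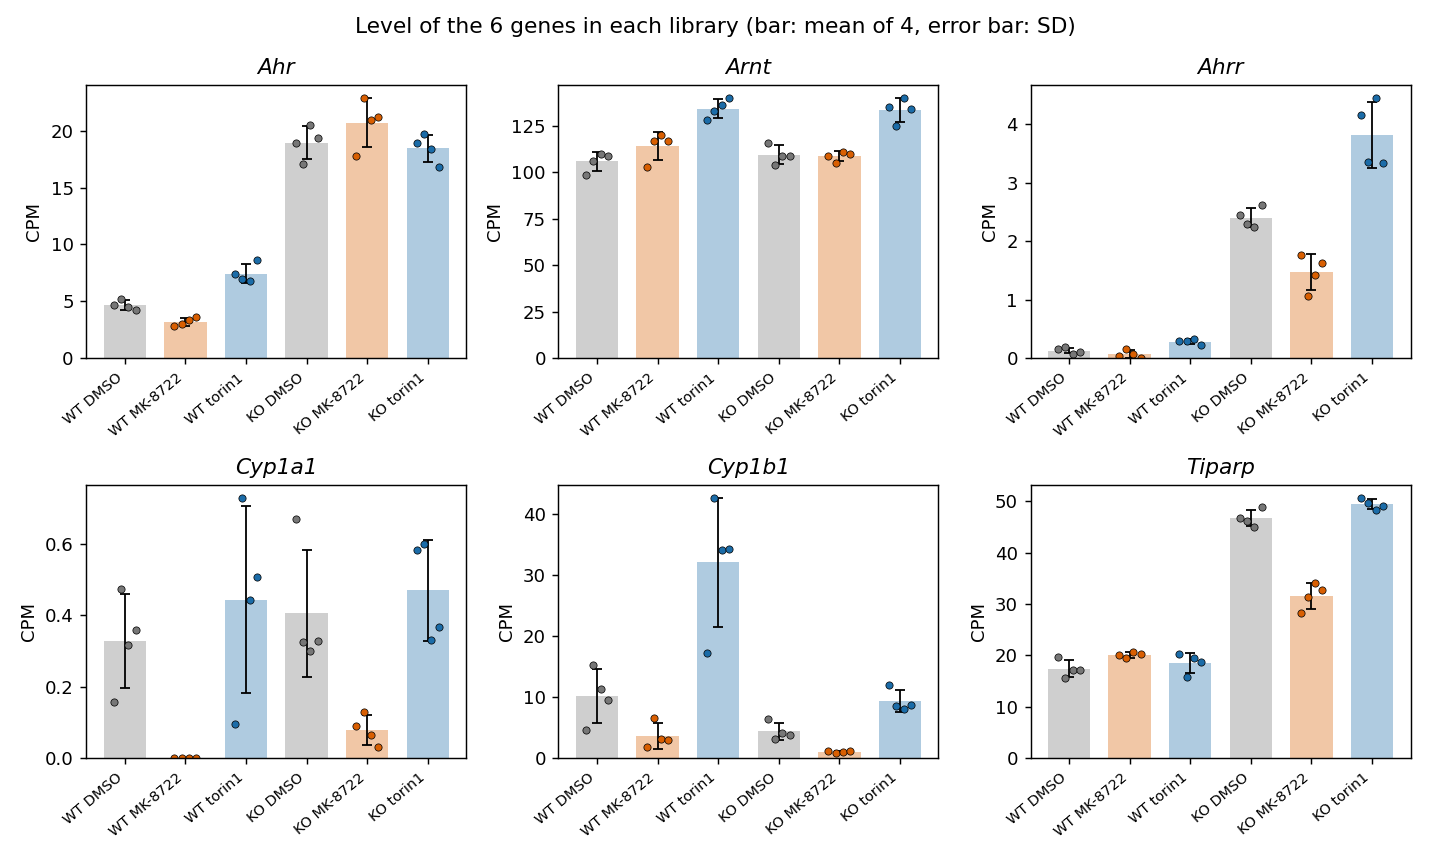
CPM of the 6 genes in each group. Each point is 1 library, ordered by passage label from left to right, bars are means of 4 libraries and error bars are SD. Cyp1b1 and Cyp1a1 have their lowest means with MK-8722 in both genotypes, while Ahr, Ahrr and Tiparp stand higher in AMPK KO than in WT under every treatment.

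The first question is which of these genes changed with the AMPK activator MK-8722 in WT cells. In WT MEFs, MK-8722 lowered 3 of the 6 genes, Ahr, Cyp1a1 and Cyp1b1. Among all genes tested, 5.66% were called lower in this comparison and 10.0% higher. Calls needed a fold of at least 1.2 and, in edgeR's quasi-likelihood test, an adjusted p below 0.05. Cyp1a1 passed the filter on low counts through its DMSO and torin1 libraries, so its call is no support for the count. With the compared groups fitted alone, Cyp1a1 was no longer tested and 2 genes were called. The median log2 fold change of the 6 genes was -0.76, and that of all genes tested was 0. Of the markers of other cells, the summed endothelial and macrophage markers were higher with MK-8722 in WT, and the epithelial and hepatocyte markers were not. The 4 endothelial markers summed to 4.44 to 8.6 CPM against 0.878 to 1.28 CPM with DMSO, and the 4 macrophage markers to 3.14 to 4.67 against 1.98 to 2.85 CPM. In each of these lists 3 of the 4 markers stayed under 1 CPM in every library, so the sums were mostly Kdr and Cd68. The 5 epithelial markers summed to 37.1 to 52.1 CPM with MK-8722 against 49.8 to 69.1 CPM with DMSO. Hepatocyte markers summed to at most 0.0393 CPM with MK-8722 and 0.072 CPM with DMSO. The part of these markers in the changes of the 6 genes was not tested.

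Cyp1b1, a P450 enzyme that oxidizes polycyclic aromatic compounds and estradiol, stood at 11.3, 15.2, 9.55 and 4.65 CPM in WT DMSO replicates 1 to 4. With MK-8722 it stood at 6.62, 1.72, 2.98 and 3.16 CPM in replicates 1 to 4. The groups overlapped, because the highest MK-8722 library was above the lowest DMSO library. The mean fell from 10.2 ± 4.39 to 3.62 ± 2.1 CPM (SD, n = 4), a log2 fold change of -1.49 (SE 0.35, adjusted p = 0.002). Leaving out each library in turn kept the log2 fold change between -1.94 and -1.25.

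Cyp1a1, the P450 enzyme whose induction is the usual readout of AHR, was near the limit of detection. It had 9, 13, 10 and 5 estimated counts in WT DMSO replicates 1 to 4 and 0 counts in all 4 libraries of WT MK-8722. The level of Cyp1a1 was at least 11.6-fold lower with MK-8722, against a floor of 3 counts over the group (adjusted p = 0.00022, edgeR). Floors of this kind cover counting error only. A second test, DESeq2, gave Cyp1a1 no adjusted p in this comparison.

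Ahr, the receptor itself, stood at 4.49, 5.23, 4.25 and 4.68 CPM in WT DMSO replicates 1 to 4 and at 3, 2.81, 3.61 and 3.33 CPM in WT MK-8722 replicates 1 to 4. Every MK-8722 library was below every DMSO library. The fall was 0.55 on the log2 scale, from a mean of 4.66 ± 0.416 to 3.19 ± 0.354 CPM (a log2 fold change of -0.55, SE 0.11, adjusted p = 0.00061), which stays under a fold of 1.5.

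Tiparp, which encodes an ADP-ribosyltransferase that modifies AHR and limits its activity, stood at 17.2, 15.5, 17.1 and 19.6 CPM in WT DMSO and at 19.4, 20, 20.2 and 20.6 CPM in WT MK-8722, replicates 1 to 4. Its log2 fold change of 0.21 (SE 0.072, adjusted p = 0.033) was under the fold of 1.2, and without WT DMSO replicate 4 it passed, at 0.27 (adjusted p = 0.0069). Over the fits without 1 library the adjusted p of Tiparp ranged from 0.0069 to 0.18. Arnt did not pass either, with a log2 fold change of 0.11 (SE 0.049, adjusted p = 0.088). Ahrr, the repressor that competes with AHR for ARNT, had 2 to 5 counts per library with DMSO and 0 to 4 with MK-8722, and the comparison did not pass (a log2 fold change of -0.97, SE 0.52, adjusted p = 0.24). Without WT MK-8722 replicate 1 the log2 fold change of Ahrr was -1.74, and it ranged from -1.74 to -0.6, with adjusted p from 0.077 to 0.53, over the fits without 1 library.

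**Figure D2:**
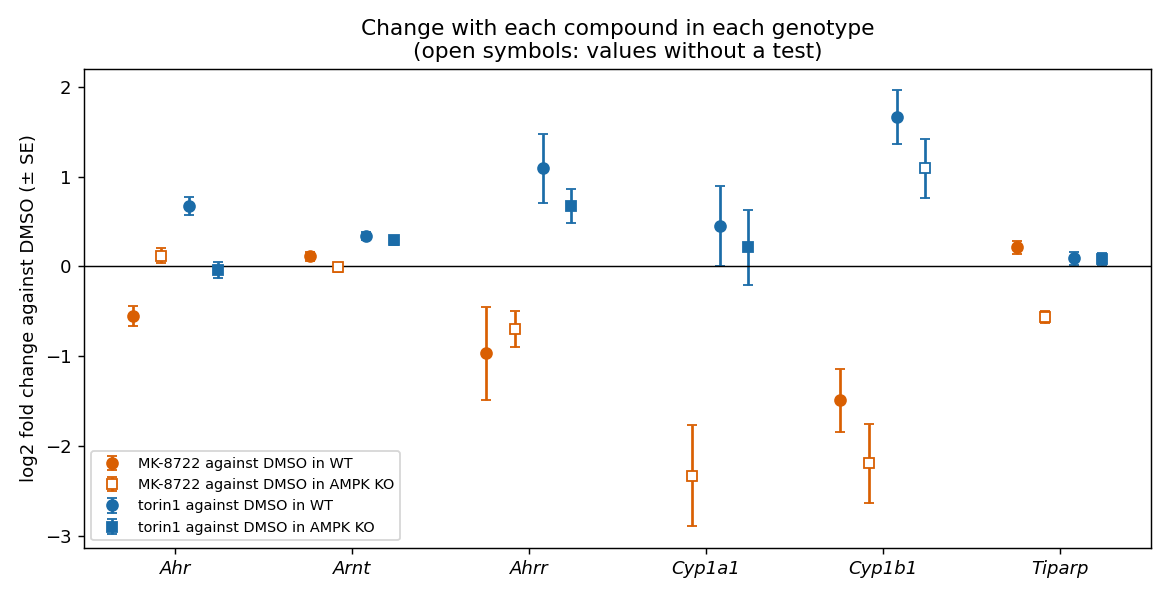
Log2 fold change against DMSO of the 6 genes, with MK-8722 in orange and torin1 in blue, in WT (circles) and AMPK KO (squares); error bars are SE of the fit. Filled symbols come from tests and open symbols are values without one. Cyp1a1 with MK-8722 in WT is not drawn, since all 4 libraries had 0 counts. Cyp1b1 lies at -1.49 with MK-8722 and at 1.66 with torin1 in WT.

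In AMPK KO MEFs, the same compound is measured in cells described as lacking its target. These values chose the genes and are given without a test. Cyp1b1 was at 3.76, 3.17, 6.35 and 4.14 CPM in AMPK KO DMSO replicates 1 to 4 and at 1.04, 1.08, 0.743 and 0.934 CPM in AMPK KO MK-8722 replicates 1 to 4, so the groups did not overlap. The mean was 4.35 ± 1.39 CPM with DMSO and 0.949 ± 0.151 CPM with MK-8722 (SD, n = 4), and the log2 fold change was -2.19 (SE 0.44).

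Cyp1a1 was low in the same libraries, with 10, 10, 22 and 10 counts in DMSO replicates 1 to 4 and 1, 3, 4 and 2 counts in MK-8722 replicates 1 to 4, and a log2 fold change of -2.33 (SE 0.56). Tiparp was at 48.8, 46.2, 46.7 and 45 CPM with DMSO and at 32.8, 28.2, 31.4 and 34 CPM with MK-8722, and its log2 fold change in AMPK KO was -0.56 (SE 0.066). These 3 targets were past both thresholds, on the lower side, and with passage as a block 4 genes were. Among all genes tested, 0.695% were called lower in this comparison and 0.866% higher, and since it chose the genes nothing is read from the count.

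Of the other genes, Ahrr was at 2.62, 2.3, 2.44 and 2.25 CPM with DMSO and 1.63, 1.77, 1.07 and 1.42 CPM with MK-8722 in AMPK KO, again without overlap, with a log2 fold change of -0.7 (SE 0.2). The log2 fold change was 0.12 (SE 0.084) for Ahr and -0.01 (SE 0.048) for Arnt. The 4 targets and feedback genes thus had lower means with MK-8722 in AMPK KO, and the receptor and its partner had means close to those with DMSO.

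The response to MK-8722 can be set side by side in the 2 genotypes, again without a test. The log2 fold change in AMPK KO less that in WT was 0.67 (SE 0.14) for Ahr and -0.77 (SE 0.098) for Tiparp. It was -0.7 (SE 0.57) for Cyp1b1, -0.12 (SE 0.068) for Arnt and 0.26 (SE 0.51) for Ahrr, which became 1.03 without WT MK-8722 replicate 1. Cyp1a1 had 0 counts in WT MK-8722, so its fitted difference of 4 (SE 1.5) is not a measured size. Of the 6 genes, 2 were past both thresholds, where 12.8% of all genes tested were. For Cyp1b1 the difference was close to its own standard error, and its 95% interval ran from -1.9 to 0.5. Both come from the fit without passage as a block, so they include the spread of Cyp1b1 between passage labels, which is given next.

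Cyp1b1 varied with the passage label as well. In WT, the library of passage 12 was the lowest of its group under each treatment, with 4.65 CPM in DMSO, 1.72 CPM with MK-8722 and 17.3 CPM with torin1, and that of passage 13 was the highest, with 15.2, 6.62 and 42.7 CPM. In AMPK KO, the library of passage 16 was the highest under each treatment, with 6.35, 1.08 and 12 CPM. Set beside the DMSO library of the same passage, the MK-8722 library had a Cyp1b1 level 2.3 to 3.59 times lower in WT and 3.63 to 5.86 times lower in AMPK KO. With torin1 the ratio to DMSO of the same passage lay between 2.81 and 3.72 in WT and between 1.89 and 2.68 in AMPK KO. The direction was therefore the same at each of the 8 passages, within which no test can be made from 1 library each.

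**Figure D3:**
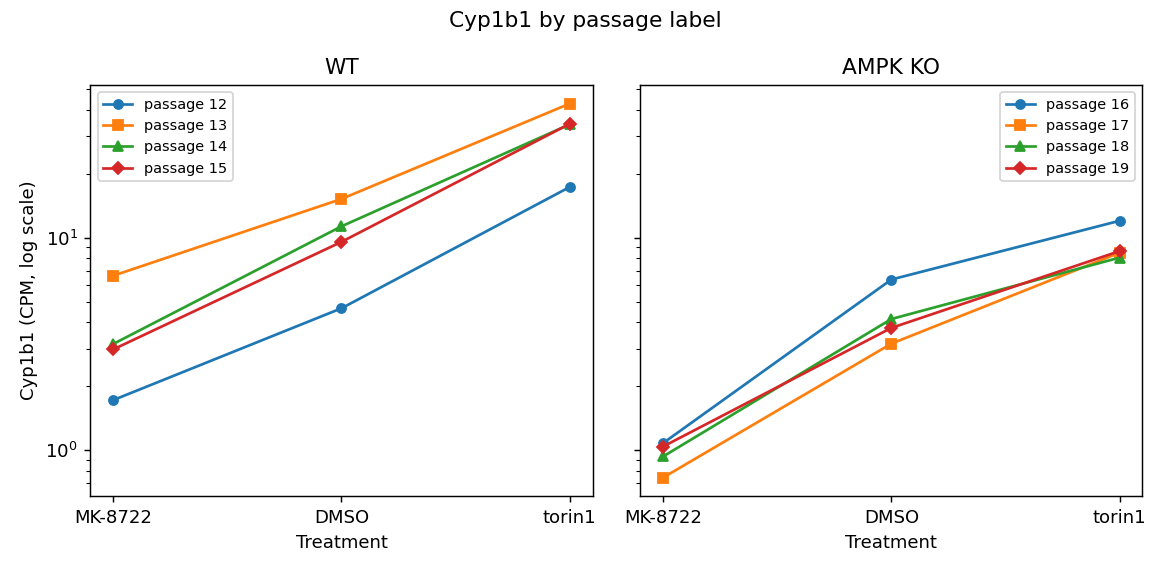
Cyp1b1 in CPM, on a log axis, under MK-8722, DMSO and torin1, with a line for each passage label, in WT (left) and AMPK KO (right). Each line climbs from MK-8722 through DMSO to torin1, and in WT the passage 12 line lies below the others throughout, from 1.72 to 17.3 CPM.

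Cyp1b1 RNA was assigned mainly to 2 transcripts. ENSMUST00000024894, of 5128 bases, took 73% of the estimated counts of the gene over all libraries, and ENSMUST00000234361, of 3398 bases, took 26.3%. Their levels in WT were 2.15 ± 0.96 and 1.22 ± 0.58 TPM with DMSO, 0.79 ± 0.491 and 0.406 ± 0.175 TPM with MK-8722, and 7.36 ± 2.22 and 4.15 ± 1.8 TPM with torin1 (SD, n = 4). The longer transcript held 62.8% ± 10.7, 60.5% ± 12.3 and 63.6% ± 4.13 of Cyp1b1 TPM in these 3 groups, so the split moved by less than its spread. In AMPK KO with MK-8722 the share ranged from 29% to 100% over libraries of 23 to 36 counts, which is too few to split.

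The next question is how the same genes changed with the MTOR inhibitor torin1. In WT MEFs, torin1 raised 4 of the 6 genes, Ahr, Arnt, Ahrr and Cyp1b1, where 26.6% of all genes tested were called higher and 21.1% lower. The median log2 fold change was 0.56 for the 6 genes and 0.04 for all genes tested.

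Cyp1b1 stood at 34.3, 42.7, 34.1 and 17.3 CPM in WT torin1 replicates 1 to 4, all above the highest DMSO library. Its mean rose to 32.1 ± 10.6 CPM, a log2 fold change of 1.66 against DMSO (SE 0.3, adjusted p = 4.4e-05). Ahr stood at 8.63, 6.92, 6.77 and 7.42 CPM with torin1, again all above DMSO, and rose by 0.67 (SE 0.1, adjusted p = 3.5e-06) on the log2 scale.

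Arnt, which is also the partner of the hypoxia factors, rose from 106 ± 5.3 to 134 ± 4.99 CPM, a log2 fold change of 0.34 (SE 0.048, adjusted p = 1.8e-06). Ahrr had 6 to 11 counts per library with torin1 and 2 to 5 with DMSO, and its log2 fold change was 1.09 (SE 0.38, adjusted p = 0.017). The call of Ahrr rests on few counts and was lost without WT DMSO replicate 1, at 0.88 and an adjusted p of 0.075, while over all fits without 1 library that p was between 0.013 and 0.075. Cyp1a1, at 14, 23, 15 and 3 counts in replicates 1 to 4, and Tiparp, at 15.7 to 20.2 CPM, did not pass, with log2 fold changes of 0.45 (SE 0.45) and 0.09 (SE 0.072).

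In AMPK KO MEFs, Cyp1b1 was at 12, 8.49, 8.05 and 8.64 CPM in torin1 replicates 1 to 4, above all DMSO libraries, with a log2 fold change of 1.09 (SE 0.33), given without a test. Of the other 5 genes, torin1 raised 2, Ahrr and Arnt, where 25.9% of all genes tested were called higher and 17.6% lower. Ahrr stood at 4.15, 3.36, 4.45 and 3.33 CPM with torin1, above all DMSO libraries, with a log2 fold change of 0.67 (SE 0.19, adjusted p = 0.0038).

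Arnt rose from 110 ± 5.15 to 134 ± 6.19 CPM in AMPK KO, or by 0.29 on the log2 scale (SE 0.048, adjusted p = 2e-05). This is close to the fold of 1.2, and Arnt came under it, at 0.23 to 0.25, without AMPK KO DMSO replicate 2 or 4 or AMPK KO torin1 replicate 3 or 4, which left 1 of 5 genes called. Ahr, at 16.8 to 19.7 CPM with torin1 and 17.1 to 20.5 CPM with DMSO, did not pass in AMPK KO, with a log2 fold change of -0.04 (SE 0.085) and a 95% interval from -0.22 to 0.14.

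The response of Ahr to torin1 differed between the genotypes. It was 0.71 lower on the log2 scale in AMPK KO than in WT (a difference of -0.71, SE 0.13, adjusted p = 0.0014), and between -0.82 and -0.67 without any 1 library. Of the 5 genes tested for this difference Ahr alone passed, where 7.07% of all genes tested did. The difference was -0.05 (SE 0.068) for Arnt, -0.42 (SE 0.41) for Ahrr, -0.25 (SE 0.61) for Cyp1a1 and -0.01 (SE 0.097) for Tiparp.

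The compounds can also be set against each other. In WT MEFs, 4 of the 6 genes were higher with torin1 than with MK-8722, where 24.5% of all genes were called higher. Cyp1a1 passed the filter on low counts through its DMSO and torin1 libraries, so its call is no support for the count. With Cyp1a1 set aside, the genes called higher were Cyp1b1, Ahr and Ahrr, the last with few counts in WT. Cyp1b1 differed by 3.16 (SE 0.34, adjusted p = 2.5e-08) on the log2 scale, the lowest torin1 library (17.3 CPM) lying above the highest MK-8722 library (6.62 CPM), and Ahr by 1.22 (SE 0.11, adjusted p = 9.1e-10). Cyp1a1 was at least 16-fold higher with torin1 than with MK-8722 in WT, against the floor of 3 counts over the group (adjusted p = 1.1e-05).

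Ahrr differed by 2.06 (SE 0.45, adjusted p = 0.00036) in the same comparison, and by 2.82 without WT MK-8722 replicate 1, which held 4 of the 7 counts of its group. Arnt, at 0.23 (SE 0.048, adjusted p = 3e-04), was under the fold of 1.2, and passed it without WT MK-8722 replicate 4, at 0.28.

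In AMPK KO MEFs, 4 of 5 genes were higher with torin1 than with MK-8722, where 26.8% of all genes were. Cyp1a1 passed the filter on low counts through its DMSO and torin1 libraries, so its call is no support for the count. With Cyp1a1 set aside, the genes called higher were Ahrr, Tiparp and Arnt. Cyp1a1 differed by 2.54 (SE 0.55, adjusted p = 0.00049), Ahrr by 1.37 (SE 0.19, adjusted p = 1.9e-06) and Tiparp by 0.65 (SE 0.066, adjusted p = 1.3e-08). Arnt differed by 0.3 (SE 0.048), and without AMPK KO MK-8722 replicate 3 or 4 or AMPK KO torin1 replicate 4 by 0.23 to 0.25, under the fold of 1.2. Cyp1b1 is given as a value only, with a log2 difference of 3.28 (SE 0.41) and no overlap.

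Between the genotypes, the receptor and both feedback genes were higher in AMPK KO under every treatment. In DMSO, Ahr, Ahrr and Tiparp, 3 of the 5 genes tested, were called higher in AMPK KO, where 30.9% of all genes were called higher and 26.0% lower. Most genes tested thus differed between the genotypes, and the summed fibroblast and epithelial markers were lower in AMPK KO as given above. Since Ahrr entered the test through its level in AMPK KO, its call is no support for the count, and without it 2 of 4 genes were called, Ahr and Tiparp. The same holds for the counts of called genes between genotypes with MK-8722 and torin1. The part of those cell type markers, and of passage, in the differences of these 6 genes was not tested. In bulk RNA, fewer cells that express a gene and less RNA per cell cannot be told apart.

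Ahr was at 19.4, 17.1, 18.9 and 20.5 CPM in AMPK KO DMSO replicates 1 to 4, against 4.25 to 5.23 CPM in WT, a log2 difference of 2.03 (SE 0.096, adjusted p = 4.6e-15). With MK-8722 the difference of Ahr was 2.7 (SE 0.1, adjusted p = 4.8e-17) and with torin1 1.32 (SE 0.09, adjusted p = 5.3e-12). In all 3 treatments each AMPK KO library was above each WT library. The order of the levels of Ahr was AMPK KO under the 3 treatments, with overlapping libraries and means of 18.5 to 20.7 CPM, then WT torin1, WT DMSO and WT MK-8722, each below the one before it (adjusted p = 3.5e-06 and 0.00061 for the steps within WT). Between torin1 and MK-8722 in AMPK KO, Ahr did not pass, with a log2 difference of -0.16 (SE 0.084, adjusted p = 0.099). Over the fits without 1 library that adjusted p ranged from 0.018 to 0.16.

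Ahrr was close to absent in WT and measurable in AMPK KO. In DMSO it had 80, 71, 80 and 75 counts in AMPK KO replicates 1 to 4 and 2, 5, 3 and 5 counts in WT, a log2 difference of 4.17 (SE 0.29, adjusted p = 5e-12). The log2 difference of Ahrr was 4.43 (SE 0.35, adjusted p = 4e-11) with MK-8722 and 3.75 (SE 0.24, adjusted p = 1.8e-12) with torin1. Fitted differences of Ahrr depend on the few WT counts, and that with MK-8722 became 5.19 without WT MK-8722 replicate 1.

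Tiparp was at 45 to 48.8 CPM in AMPK KO DMSO and 15.5 to 19.6 CPM in WT DMSO, a log2 difference of 1.43 (SE 0.069, adjusted p = 7.9e-15). With torin1 the difference of Tiparp was 1.42 (SE 0.069, adjusted p = 7.7e-15), and with MK-8722 0.66 (SE 0.069, adjusted p = 9.1e-09). The WT levels of Tiparp under the 3 treatments, with means from 17.3 to 20 CPM, lay below all AMPK KO levels.

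With MK-8722, 4 of the 5 genes tested were higher in AMPK KO, where 31.4% of all genes were. The fourth was Cyp1a1, with 10 counts over AMPK KO and 0 over WT, at least 2.8-fold higher against the floor (adjusted p = 0.012). This call rests on libraries of at most 4 counts each, and Cyp1a1 was tested only because its DMSO and torin1 libraries passed the filter. With Ahrr and Cyp1a1 set aside, the genes called higher with MK-8722 were Ahr and Tiparp. With torin1, 4 of the 6 genes passed, 3 higher and 1 lower, where 54.6% of all genes passed in either direction. The gene lower in AMPK KO was Cyp1b1, at 8.05 to 12 CPM against 17.3 to 42.7 CPM in WT, without overlap, with a log2 difference of -1.79 (SE 0.3, adjusted p = 1.3e-05).

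Arnt did not pass between the genotypes under any treatment. Its log2 difference was 0.05 (SE 0.048) in DMSO, -0.07 (SE 0.048) with MK-8722 and 0 (SE 0.048) with torin1. The 95% intervals of these differences of Arnt lay between -0.17 and 0.15. Cyp1a1 did not pass in DMSO (0.33, SE 0.45) or torin1 (0.08, SE 0.41), where its intervals were wide. The order of the levels of Cyp1b1, as a description, was WT torin1 (32.1 CPM), WT DMSO (10.2), AMPK KO torin1 (9.29), AMPK KO DMSO (4.35), WT MK-8722 (3.62) and AMPK KO MK-8722 (0.949), in which WT DMSO overlapped AMPK KO torin1 and AMPK KO DMSO overlapped WT MK-8722.

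The proteins that hold AHR in the cytosol or share its family were next counted, as a list of 11 genes, all tested. Genes are named from this and the next lists where they passed and averaged at least 1 CPM. With MK-8722 in WT, 1 was higher and 1 lower, Hif1a, the hypoxia factor that pairs with ARNT (0.28, SE 0.051), and Epas1, its close relative (-0.66, SE 0.21), where 10.0% of all genes tested were higher and 5.66% lower. With torin1 in WT, 1 was higher and 5 were lower, with a median of -0.29, where 26.6% of all genes were higher and 21.1% lower. The largest changes with torin1 in WT were those of the clock factors Arntl (-1.37, SE 0.15) and Clock (-0.87, SE 0.051), of Arnt2, a close homologue of Arnt (0.82, SE 0.063), and of Ptges3, the HSP90 co-chaperone p23 (-0.67, SE 0.045).

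With torin1 in AMPK KO, 1 of the 11 was higher and 6 were lower, with a median of -0.33, where 25.9% of all genes were higher and 17.6% lower. The largest were Arntl (-1.68, SE 0.15), Arnt2 (0.69, SE 0.059), Epas1 (-0.68, SE 0.16) and Clock (-0.65, SE 0.051). Between the genotypes in DMSO, 4 were higher in AMPK KO and 2 lower, where 30.9% of all genes were higher and 26.0% lower. Above the limit of 1 CPM the largest differences were those of Epas1 (2.19, SE 0.17), Arnt2 (0.89, SE 0.063), the kinase Src (-0.71, SE 0.065) and Ptges3 (-0.62, SE 0.045). With MK-8722 in AMPK KO, where 0.866% of all genes were higher and 0.695% lower, 0 of the 11 passed in edgeR and 0 in DESeq2. There, 1 had an unadjusted p under 0.05 in edgeR, and the median was 0.07.

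Of 15 further genes known as AHR targets, 7 were expressed highly enough to test, and Cyp1a2, the liver P450 of the same family, was at 0 counts in all 24 libraries. Their calls lay on both sides. With MK-8722 in WT, 1 of 7 was lower, where 5.66% of all genes were lower and 10.0% higher. It was Nfe2l2, the regulator of antioxidant genes (-0.36, SE 0.067), and the median of the 7 was -0.22. With MK-8722 in AMPK KO, 1 of 7 was higher, the growth factor Areg (0.87, SE 0.17), where 0.866% of all genes were higher and 0.695% lower. With torin1 in WT, 2 were higher and 4 lower, against 26.6% and 21.1% of all genes. The lower genes were Serpinb2, a protease inhibitor (-1.37, SE 0.35), the growth factors Ereg (-1.12, SE 0.18) and Areg (-0.94, SE 0.21), and Nfe2l2 (-0.56, SE 0.067). The higher genes, named after their values were seen, were the P450 enzyme Cyp2s1 (1.66, SE 0.3), which averaged 0.945 CPM and had the largest change of the list, and Socs2, an inhibitor of cytokine signalling (0.36, SE 0.068). With torin1 in AMPK KO, where 25.9% of all genes were higher and 17.6% lower, 1 was higher and 3 lower, Ereg (-1.43, SE 0.22), Areg (-0.92, SE 0.18) and Nfe2l2 (-0.41, SE 0.066) being lower and Socs2 higher (0.56, SE 0.071).

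Between the genotypes in DMSO all 7 of these targets passed, 4 higher and 3 lower in AMPK KO, in a comparison where 30.9% of all genes were higher and 26.0% lower. The largest difference was that of Cyp2s1 (3.84, SE 0.24), at 1.54 against 0.104 CPM, named after its value was seen since it averaged 0.945 CPM. Nqo1, a quinone reductase, was higher by 1.87 (SE 0.13), at 15.3 against 4.16 CPM, and Areg by 0.91 (SE 0.19), while Serpinb2 was lower by a log2 difference of -3.48 (SE 0.42) and Ereg by one of -1.48 (SE 0.19).

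Enzymes that make AHR ligands from tryptophan formed a list of 10, of which 6 were tested, and Ido1, Tdo2, Kynu and Kmo were too low. With torin1 in WT, 4 were higher and 1 lower, with a median of 0.82, against 26.6% of all genes higher and 21.1% lower. Il4i1, an amino acid oxidase, rose by 1.84 (SE 0.19) to 3.65 CPM, Kyat1, a kynurenine aminotransferase, by 0.71 (SE 0.097) and Afmid, kynurenine formamidase, by 0.61 (SE 0.096), while Kyat3, a further aminotransferase, was lower (-0.32, SE 0.094). With torin1 in AMPK KO, 4 were higher, against 25.9% of all genes, with Il4i1 at 1.16 (SE 0.21), Afmid at 0.66 (SE 0.096) and Kyat1 at 0.5 (SE 0.09). With MK-8722 in WT, 1 was higher, Kyat3 (0.3, SE 0.092), against 10.0% of all genes higher and 5.66% lower. In AMPK KO with MK-8722, where 0.866% of all genes were higher and 0.695% lower, 0 of 6 passed in edgeR or DESeq2. There, 0 had an unadjusted p under 0.05 in edgeR, and the median was 0.16. Between the genotypes in DMSO, 2 were higher in AMPK KO and 1 lower, against 30.9% and 26.0% of all genes, including Kyat1 (0.79, SE 0.097) and Kyat3 (-0.78, SE 0.096).

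The 4 proteins that pass electrons to P450 enzymes were all tested. With MK-8722, 0 of 4 passed in either genotype in edgeR or DESeq2, where 2 in WT and 0 in AMPK KO had an unadjusted p under 0.05 in edgeR. Among all genes tested, MK-8722 raised 10.0% and lowered 5.66% in WT, and raised 0.866% and lowered 0.695% in AMPK KO. With torin1, which lowered 21.1% of all genes in WT and 17.6% in AMPK KO, Cyb5b, an outer mitochondrial cytochrome b5, fell by 0.9 in WT (a log2 fold change of -0.9, SE 0.063) and by 0.84 in AMPK KO (-0.84, SE 0.063), and Cyb5a fell by 0.42 (-0.42, SE 0.086) and 0.5 (-0.5, SE 0.09). Por, the reductase that every microsomal P450 needs, was higher in AMPK KO in DMSO by 0.81 (SE 0.062), at 217 against 124 CPM, and Cyb5a was lower there (-0.71, SE 0.086).

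**Figure D4:**
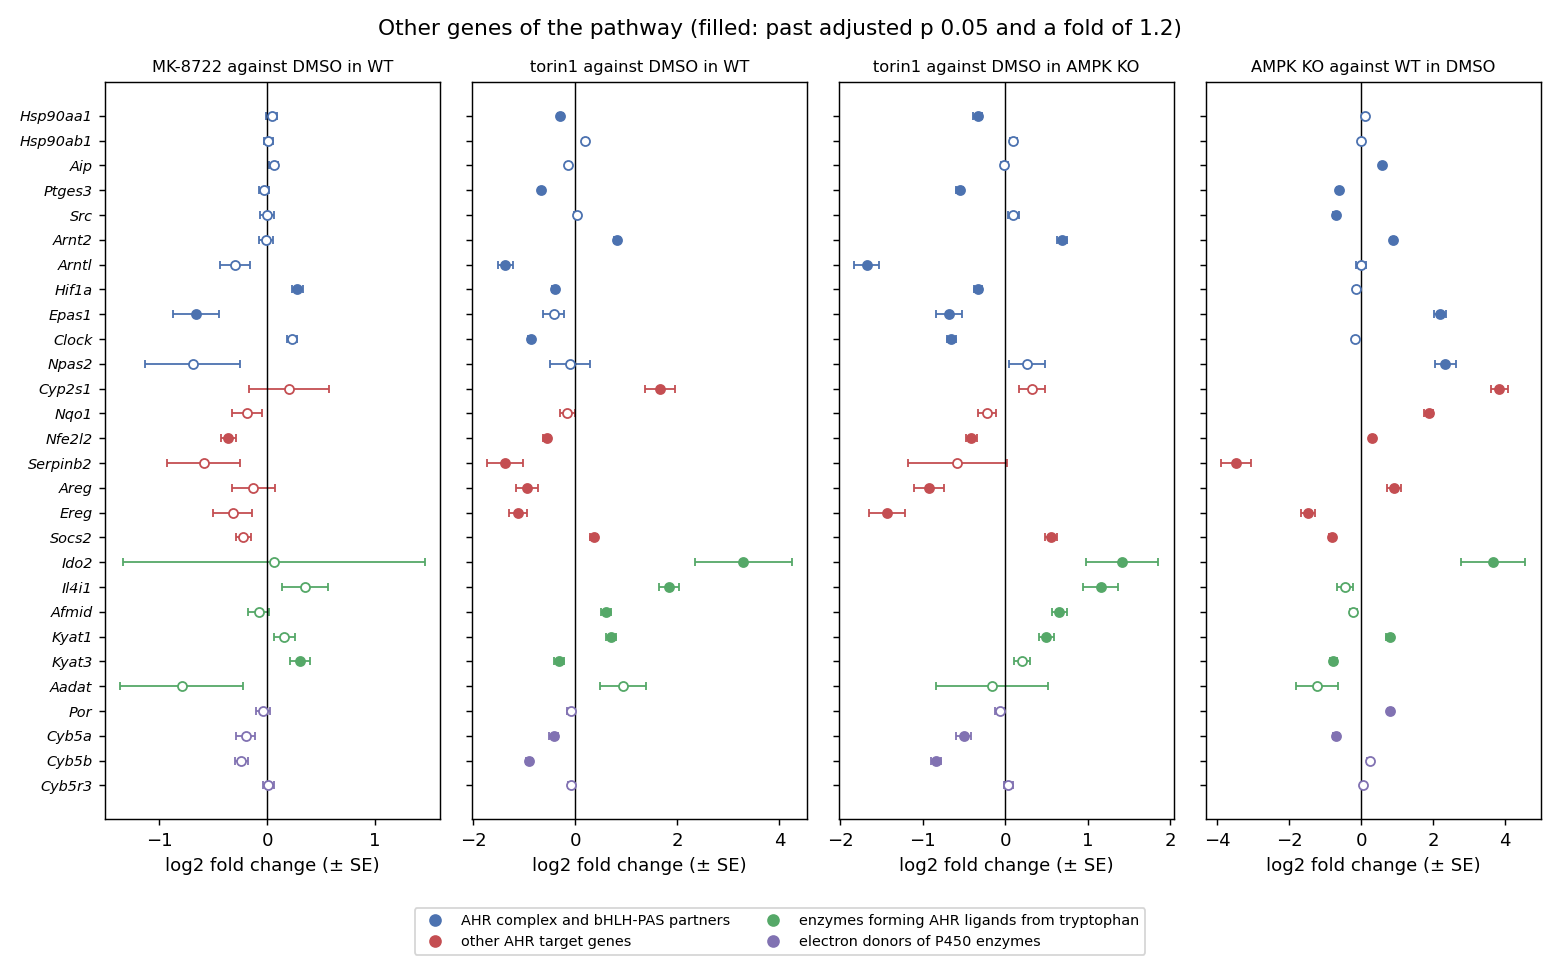
Log2 fold change with SE of 28 other genes of the pathway in 4 comparisons, each panel with its own scale and each list in 1 colour. Filled points passed both thresholds. The torin1 panels hold filled points on both sides of 0, among them Arntl at -1.37 and Il4i1 at 1.84 in WT.

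The genes whose pattern over the 24 libraries was most like that of each member were found by Pearson's r of log2 CPM, as a description of libraries that share genotype and treatment. For Cyp1b1 they were Ajm1 (r = 0.949), Gab1, an adaptor of growth factor receptors (0.935), and Atoh8, a helix-loop-helix factor (0.929), and for each of the 3 the r within either genotype alone was at least 0.92. Atoh8 stood at 21, 12.4 and 43.7 CPM in WT DMSO, MK-8722 and torin1, and at 12.1, 7.01 and 13.4 CPM in AMPK KO.

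For Cyp1a1 the nearest were Mxd3 (0.885), Clspn (0.877) and Peg13 (0.861), and for Arnt they were Zmym3 (0.96), Wrn (0.959) and Hectd3 (0.958). For Ahr they were Cacna1i (0.986), Zfp105 (0.984) and Apcdd1 (0.983), and within AMPK KO alone the r of these 3 with Ahr was 0.77, -0.37 and 0.12. For Ahrr they were Fam43a (0.983), Shroom3 (0.982) and Plscr2 (0.982), and for Tiparp they were Racgap1 (0.968), Rab3gap1 (0.966) and Cpeb3 (0.96). Within WT alone the r of Tiparp with Racgap1 was 0.15.

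Among the 6 genes themselves, Cyp1b1 and Cyp1a1 had an r of 0.85 over the 12 WT libraries and 0.9 over the 12 AMPK KO libraries. Cyp1b1 and Tiparp had an r of -0.55 in WT and 0.93 in AMPK KO, and Cyp1b1 and Ahr one of 0.89 in WT and -0.54 in AMPK KO. About the group means, over all 24 libraries, r with Cyp1b1 was 0.62 for Cyp1a1, -0.56 for Tiparp and 0.07 for Ahr. These are descriptions over libraries that share treatments, and Cyp1a1 rests on at most 23 counts per library.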

How the data were processed

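Poly(A) RNA of 24 libraries was sequenced. The authors ran nf-core/rnaseq, with reads aligned by STAR and quantified by Salmon on GRCm38 with an Ensembl annotation, and gave options for molecular identifiers in UMI-tools. The deposited gene table holds estimated counts, not normalized, and deposited tables per transcript give estimated counts with TPM. Groups follow the labels for genotype and treatment.

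Counts were rounded, filtered with filterByExpr, scaled by TMM and fitted as 6 group means over all 24 libraries in edgeR 4.0.16 (R 4.3.3). Two-sided quasi-likelihood p-values were adjusted by Benjamini-Hochberg over 15828 genes. Genes with an adjusted p under 0.05 and a fold of at least 1.2 were called. Log2 CPM used a prior count of 2. The procedures were tested on simulated data. The members and the gene lists were chosen with earlier results of these data known. From each list, up to 4 called genes with the largest change and a mean of at least 1 CPM were named, and for each member the 3 genes with the highest r. Alternatives were other scalings, filters, thresholds and blocks, DESeq2 1.42.0, the compared groups alone, and leaving out each library.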

Additional observations from a re-analysis of the deposited data

Results flagged for a closer look

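Among groups of 4 libraries, 2 single libraries stood apart from the other 3 of their group. Cyp1a1 was at 0.671 CPM in AMPK KO DMSO replicate 3, against 0.3 to 0.327 CPM in the others. Cyp1b1 was at 12 CPM in AMPK KO torin1 replicate 1, against 8.05 to 8.64 CPM. Both libraries carry passage label 16, and 35 groups were looked at, of which chance marks about 1 in 20.

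The response of Ahr to torin1 differed between genotypes in the interaction test of edgeR, being -0.71 on the log2 scale in AMPK KO relative to WT (adjusted p = 0.0014).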

How the results depend on the processing

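Of 1199 values of single genes recomputed under alternatives, 1178 counted as the same, 14 lost and 6 gained a call. A further 1 moved as a description, and no called value turned direction. A tested value counted as the same when it kept its side of the thresholds, so values that were not called could change sign. A value without a test counted as the same when it moved by less than the spread within groups. Arnt with MK-8722 in AMPK KO, for example, went from -0.01 to 0.02 without AMPK KO DMSO replicate 3. With at least 10 counts in every library, Ahrr and Cyp1a1 were no longer tested, and the number called became 2 for AMPK KO against WT in MK-8722, 2 for torin1 against MK-8722 in AMPK KO and 1 for torin1 against DMSO in AMPK KO. For torin1 against DMSO in AMPK KO it was also 1 at a fold of at least 1.5 and 1 with the compared groups alone, and 1 to 2 without any 1 library. With the compared groups alone, Ahrr and Cyp1a1 left the test of torin1 against MK-8722 in WT, and 2 were called. At a fold of at least 1.5, Ahr was no longer called with MK-8722 in WT, which left 2 genes in place of 3. For that comparison 2 were also called with at least 10 counts in every library, with the compared groups alone and in DESeq2. With adjusted p alone, or without WT DMSO replicate 4, the number was 4. The adjusted p that DESeq2 did not give for Cyp1a1 counts as no call lost. Same-numbered replicates correlated between -0.2 and 0.25, and over 0.1 in 5 of 36 pairs. Same-passage libraries correlated between -0.01 and 0.37, and over 0.1 in 15 of 24 pairs. The main fit paired libraries by neither number, so it leaves out what libraries of the same passage share. With passage as a block, 2907 genes in place of 2483 were called for MK-8722 against DMSO in WT, with 3 of the 6 as before. There the adjusted p of Cyp1b1 in edgeR was 1.1e-08 in place of 0.002. With the replicate number as a block, the count of called genes was 3 for MK-8722 and 4 for torin1 against DMSO in WT, as without the block. With the replicate number as a block 3 genes, and with passage as a block 4 genes, in place of 2, were past the thresholds when the MK-8722 responses of the genotypes were set against each other. With passage as a block, 4 genes in place of 3 were past them for MK-8722 against DMSO in AMPK KO, where 729 genes of the whole table were called in place of 247. Depth limits Cyp1a1 in every group and Ahrr in WT.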
